A study of Rattus norvegicus with 8 samples.

Results

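The integrin subunits that bind collagens and laminins are 9 genes, chosen by name: the collagen-binding alpha subunits Itga1, Itga2, Itga10 and Itga11, the laminin-binding alpha subunits Itga3, Itga6 and Itga7, the beta subunit Itgb4, and Itgb1, the beta partner of both kinds. All 9 were found, each once, among the 32623 genes of the count files. RNA came from the epigastric vein of rat femoral arteriovenous fistulas (AVFs) 21 days after surgery. In the BAPN group, 4 Sprague Dawley rats (3 females, 1 male) carried a nanofiber wrap loaded with β-aminopropionitrile (BAPN), which blocks lysyl oxidase, the enzyme that crosslinks collagen and elastin fibers, around the vein. In the Vehicle group, 4 rats (2 females, 2 males) had the same surgery and a wrap without BAPN. The whole vein was used, so that in these bulk libraries fewer cells of a type and less RNA per cell cannot be told apart.

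An integrin is a pair of 1 alpha and 1 beta chain that spans the cell membrane, holds a matrix protein outside the cell and connects through talin, kindlin and related adaptors to the actin cytoskeleton. The collagen receptors α1β1, α2β1, α10β1 and α11β1 all share the β1 chain. The laminin receptors α3β1, α6β1 and α7β1 share it as well, while α6 can also pair with β4, whose long cytoplasmic tail connects to the intermediate filaments of hemidesmosomes. In vessel walls, α1β1 and α7β1 are known from smooth muscle, α11β1 from fibroblasts, and α6 with β1 or β4 from endothelium and nerve sheaths.

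The depth differed between the groups, with 45039451 to 52241007 counted reads per library in the BAPN group and 19548203 to 22442050 in the Vehicle group, without overlap, so depth and treatment cannot be told apart. Levels are given as CPM (reads per gene scaled to library size with TMM factors), as mean ± SD (n = 4 in each group), and changes as the log2 fold change of BAPN against Vehicle with its standard error (SE). These CPM are not corrected for gene length, so levels are compared between rats and never between genes. A gene was called at a false discovery rate (FDR) below 0.05 in edgeR, adjusted over the 11682 genes with a base mean (mean normalized count) of at least 100. Defining markers of a vein, smooth muscle Myh11 and endothelial Cdh5, had reads in all 8 libraries. The endothelial sum (7 markers) was 246 to 457 CPM in the BAPN group and 583 to 1301 CPM in the Vehicle group, and 3 of the 7 were called lower, against 9.25% of all tested genes. The groups were apart in this sum only with Vwf: without it, an alternative added after seeing the data, the sums were 187 to 355 and 316 to 706 CPM, with overlap. The smooth muscle sum (8 markers) was 1673 to 4265 and 3346 to 6090 CPM, with overlap, and 6 of the 8 were called lower, against the same 9.25%. The T cell sum (4 markers) was 35.3 to 79.2 CPM with BAPN and 15.6 to 33.6 CPM with vehicle, without overlap, and 2 of the 4 were called higher, against 7.5% of all tested genes.

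Of the 9 integrin genes, 8 were above the base mean filter and 1 was called, the laminin receptor chain Itgb4, which was lower in the BAPN group. In the background of all tested genes, 16.8% were called in either direction and 9.25% were called lower, so a count of 1 in 8 is near the background. None was called higher, where the background was 7.5%. A log2 fold change below 0 was seen in 7 of the 8, against 48.4% of all tested genes. The median was -0.81, against 0.02 over all tested genes. Itgb1 alone had a value above 0. DESeq2 called 4 of the 8 lower, Itgb4, Itga7, Itga1 and Itga3, where its background was 27.4% in either direction and 15.1% for lower. In simulated counts for this comparison, with 200 of 11682 genes changed, DESeq2 found 183 with 45 false calls and edgeR 164 with 6. The simulation used the spread estimated by edgeR and changed a smaller share of genes than was called here. Its false calls therefore do not carry over to these calls.

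**Figure D1:**
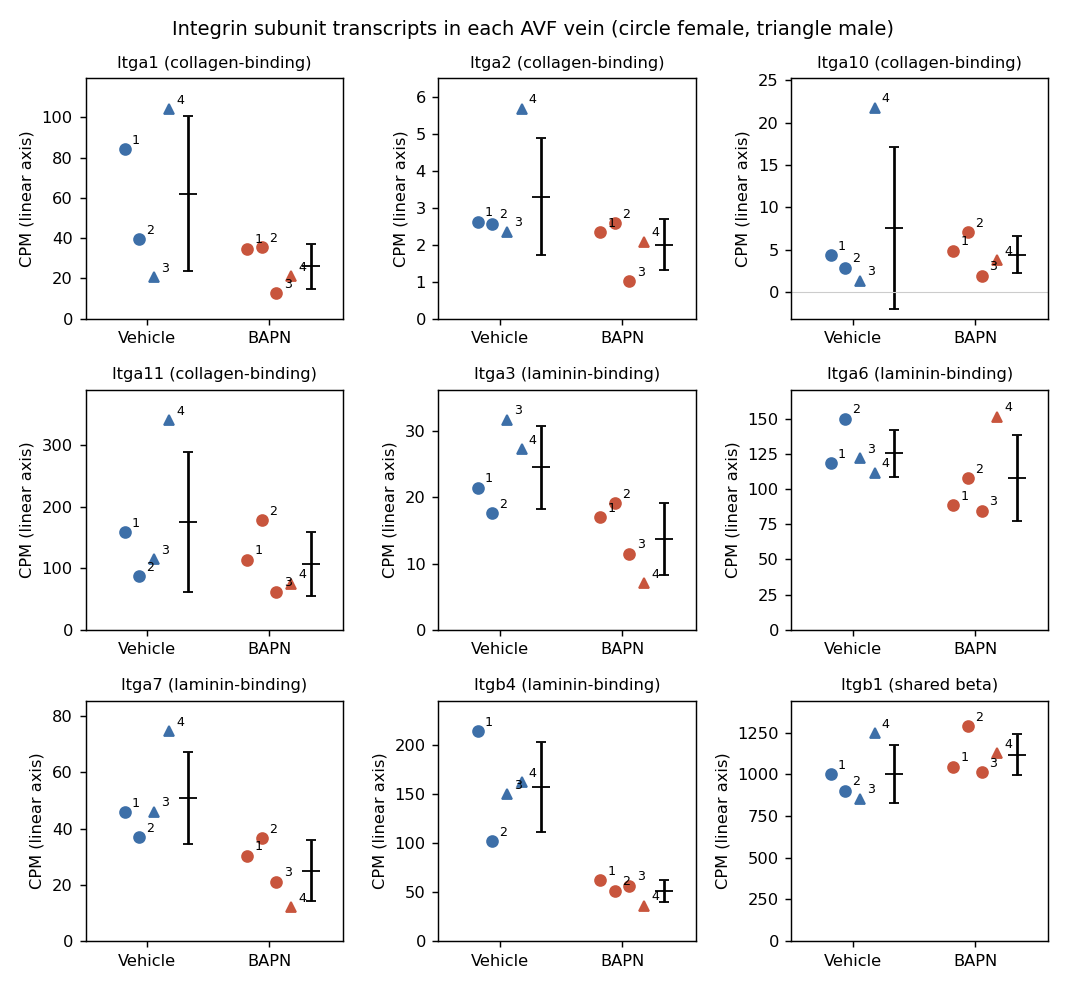
CPM of the 9 subunits in each vein on linear axes, with circles for females, triangles for males, the replicate number beside each point, blue for Vehicle, red for BAPN, and the group mean ± SD in black (the SD bar of Itga10 in the Vehicle group runs below 0). The groups are apart for Itgb4 and Itga7, and Vehicle 4 is the highest library for 5 of the 9 genes (Itga1, Itga2, Itga10, Itga11 and Itga7).

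Itgb4 (ENSRNOG00000005580) was at 61.9, 51.0, 56.4 and 35.8 CPM in BAPN 1 to 4. In Vehicle 1 to 4 it was at 214, 102, 149 and 161 CPM. All BAPN values lay below all Vehicle values, and the lowest Vehicle value was 1.64 times the highest BAPN value. Of the 8 tested integrin genes, 2 (Itgb4 and Itga7) had groups without overlap, both lower, against 24.7% of all tested genes in either direction, 11.9% lower and 12.7% higher. The group levels were 51.3 ± 11.2 and 156 ± 46.0 CPM, a log2 fold change of -1.61 (SE 0.24, FDR 0.00863), or 3.05-fold lower with BAPN. The exact two-sided permutation p over 70 arrangements was 0.0286, the smallest that 4 against 4 can give.

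The call of Itgb4 was kept in all 8 fits that left out 1 rat, with log2 fold changes of -1.77 to -1.42 and FDRs of 0.00471 to 0.0279. A fit of females alone (3 BAPN, 2 Vehicle) gave -1.48 with an FDR of 0.0737, and the call was lost. The paper that described these libraries names Itgb4, Itga1 and Itga7 among its genes of interest. Its DESeq comparison reports each of them as lower with BAPN at an FDR below 0.05, while edgeR here called Itgb4 alone. Because the libraries are the same, the direction of these genes here is not independent evidence. Itgb4 is also a chain of epithelial cells. The 5 epithelial and keratinocyte markers in the files summed to 1.40 to 29.9 CPM with BAPN and 2.02 to 5.58 CPM with vehicle (only Cdh1 was above the filter, FDR 0.449). Krt5 had no reads in 3 libraries (BAPN 4, Vehicle 3 and Vehicle 4) and Krt14 in those and BAPN 3, Cdh1 had reads in all 8, and Krt5 reached 8.11 CPM in BAPN 2. The part of epithelial cells in Itgb4 was not tested. Of the nerve and Schwann cell markers, 0 of 7 tested were called, against 16.8% of all tested genes, and their sum was 449 to 737 CPM with BAPN and 392 to 495 CPM with vehicle. BAPN 4 was the lowest of its group in the endothelial sum, with and without Vwf, and in Itgb4. BAPN 4 was also the lowest of its group in the adipocyte, T cell, skeletal muscle and epithelial sums. In the Vehicle group Itgb4 was highest in Vehicle 1, and the endothelial sum was highest in Vehicle 1 with Vwf and in Vehicle 4 without it. Vehicle 1 was also the highest of its group in the adipocyte, nerve and platelet sums. The part of endothelial or other cell content in the change of Itgb4 was not tested.

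Itga6 (ENSRNOG00000001518), the alpha chain that pairs with β4 or β1, was at 88.5, 108, 84.7 and 151 CPM in BAPN 1 to 4 and at 118, 149.8, 122 and 112 CPM in Vehicle 1 to 4. The highest of the 8 values was that of BAPN 4, the male of its group, and the groups overlapped. The means were 108 ± 30.6 and 125 ± 16.8 CPM (log2 fold change -0.21, SE 0.19, FDR 0.444, exact permutation p = 0.257). Without BAPN 4 the log2 fold change was -0.43 (FDR 0.0937). In females alone it was -0.52 (FDR 0.140), where the BAPN values (84.7 to 108 CPM) lay below the Vehicle values (118 to 149.8 CPM).

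Set against its partner inside each library, Itgb4 had 700.1, 473, 666.3 and 237 reads per 1000 Itga6 reads in BAPN 1 to 4, compared with 1805, 678, 1226 and 1447 in Vehicle 1 to 4. Vehicle 2 lay within the BAPN range and the other Vehicle rats lay above it. The mean log2 ratio was -1.06 ± 0.72 with BAPN and 0.28 ± 0.60 with vehicle, a difference of -1.34 (exact two-sided permutation p = 0.0571, adjusted p = 0.114 over 8 ratios), and of -0.87 in females alone. Such a ratio does not depend on how libraries are scaled to each other. It is a ratio of reads, not of molecules, since the genes differ in length.

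Itga7 (ENSRNOG00000007905), the laminin receptor chain of smooth and skeletal muscle, was at 30.4, 36.6, 21.0 and 12.1 CPM in BAPN 1 to 4 and at 45.9, 36.9, 46.0 and 74.7 CPM in Vehicle 1 to 4. The groups did not overlap, but BAPN 2 and Vehicle 2 were nearly level, their values standing in a ratio of 1.01. The means were 25.0 ± 10.8 and 50.9 ± 16.4 CPM. The log2 fold change of -1.02 (SE 0.34, FDR 0.0637, exact permutation p = 0.0286) did not pass the threshold in edgeR, and did in DESeq2 (FDR 0.0155) and without BAPN 2 (log2 fold change -1.28, FDR 0.0499). Without Vehicle 4, the library with the highest level, the value was -0.78, and a fit of females alone gave -0.49 (FDR 0.258). In the smooth muscle list, 6 of 8 markers were called lower, and the part of smooth muscle content in Itga7 was not tested. Skeletal muscle markers summed to 16.1 to 30.0 CPM with BAPN and 17.1 to 69.7 CPM with vehicle.

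Itga3 (ENSRNOG00000004276), the alpha chain of a receptor for laminins of basement membranes, was at 17.01, 19.2, 11.5 and 7.08 CPM in BAPN 1 to 4 and at 21.5, 17.6, 31.8 and 27.3 CPM in Vehicle 1 to 4. Only BAPN 2 and Vehicle 2 crossed. The means were 13.7 ± 5.46 and 24.5 ± 6.24 CPM (log2 fold change -0.84, SE 0.32, FDR 0.0848, exact permutation p = 0.0571). DESeq2 gave an FDR of 0.0356. The 2 highest libraries were the Vehicle males and the lowest was the BAPN male, and a fit of females alone gave -0.30.

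**Figure D2:**
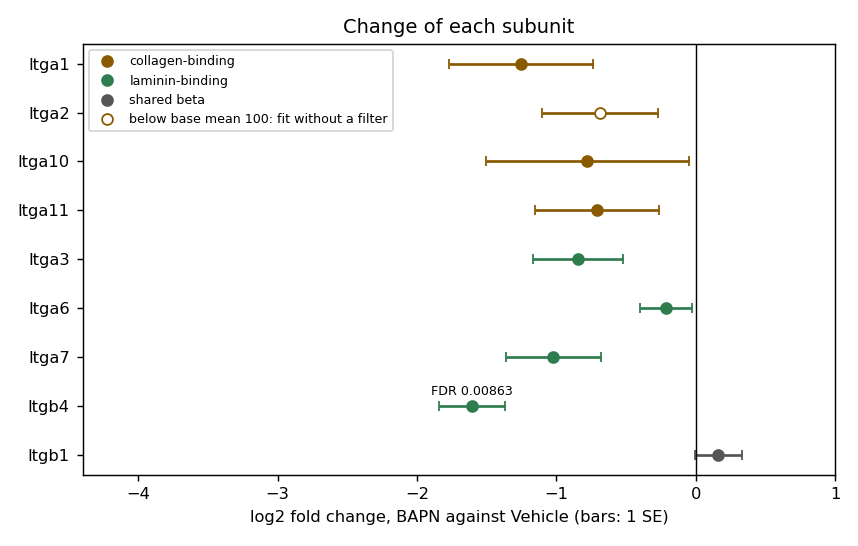
Log2 fold change of BAPN against Vehicle for each subunit, with bars of 1 SE (brown collagen-binding, green laminin-binding, grey Itgb1). Itgb4 has the lowest value and passed the threshold (FDR 0.00863), Itgb1 lies slightly above 0, and the open symbol for Itga2, below the base mean filter, is from the fit without a filter.

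The collagen receptor chains were lower on average in the BAPN group, but none was called in edgeR and every gene had overlapping groups. Itga1 (ENSRNOG00000053550), the collagen receptor chain known from smooth muscle and other mesenchymal cells, was at 34.7, 35.5, 12.6 and 21.1 CPM in BAPN 1 to 4. In Vehicle 1 to 4 it was at 84.1, 39.6, 20.7 and 104 CPM. Vehicle 1 and Vehicle 4 stood above all others, while Vehicle 3 lay below 3 of the BAPN rats. The means were 26.0 ± 11.1 and 62.1 ± 38.5 CPM, a log2 fold change of -1.26 (SE 0.52, FDR 0.105, exact permutation p = 0.143). DESeq2 called it (FDR 0.0324). Leaving out 1 rat moved the value between -1.55 (without Vehicle 3) and -0.89 (without Vehicle 4), and no such fit called it. A fit of females alone gave -1.16 (FDR 0.198).

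Itga11 (ENSRNOG00000006723), the fibroblast receptor for fibrillar collagens, was at 114, 178, 61.8 and 74.8 CPM in BAPN 1 to 4 and at 158, 86.6, 114 and 341 CPM in Vehicle 1 to 4. Vehicle 4 was 2.15 times the next Vehicle library, and the other 7 values were interleaved. The means were 107 ± 52.0 and 175 ± 114 CPM (log2 fold change -0.71, SE 0.45, FDR 0.289, exact permutation p = 0.286). Without Vehicle 4 the value was -0.16, and among females alone, which had means of 118 CPM with BAPN and 122 CPM with vehicle, it was -0.06.

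Itga10 (ENSRNOG00000021217), a collagen receptor chain best known from cartilage, was at 4.87, 7.04, 1.91 and 3.76 CPM in BAPN 1 to 4 and at 4.31, 2.87, 1.30 and 21.7 CPM in Vehicle 1 to 4. Vehicle 4 was 5.05 times the next Vehicle library and the other 3 Vehicle rats were within or below the BAPN range. The means were 4.397 ± 2.14 and 7.55 ± 9.53 CPM. The log2 fold change was -0.78 (SE 0.73, FDR 0.493, exact permutation p = 0.943 on log2 CPM). Its direction rested on Vehicle 4, since without that rat the value was 0.64 (FDR 0.425).

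Itga2 (ENSRNOG00000058111), the collagen receptor chain of platelets and epithelium, had a base mean of 84.4 and was not tested in the main comparison. It had 113, 131, 44 and 100 reads in BAPN 1 to 4 and 56, 52, 56 and 119 reads in Vehicle 1 to 4, or 2.34, 2.58, 1.01 and 2.09 CPM against 2.62, 2.57, 2.36 and 5.68 CPM. Among the low values BAPN 3 stood out downwards and Vehicle 4 upwards. A fit without a filter on low counts gave a log2 fold change of -0.69 (SE 0.41, FDR 0.332, exact permutation p = 0.0857). The 4 platelet markers summed to 67.0 to 124 CPM with BAPN and 44.4 to 87.6 CPM with vehicle, mostly from Pf4, and Ppbp and Gp9 were below 1 CPM in every library. The 2 tested markers had opposite signs, with Pf4 at 0.63 (FDR 0.114) and Itga2b called lower at -1.22 (FDR 0.0401). Their part in the level of Itga2 was not tested.

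The 4 collagen-binding chains ranked the rats alike. In the BAPN group, all 4 genes had the order BAPN 3, BAPN 4, BAPN 1, BAPN 2 from lowest to highest. In the Vehicle group, Itga1, Itga2 and Itga10 had the order Vehicle 3, Vehicle 2, Vehicle 1, Vehicle 4, and Itga11 differed from it only in that Vehicle 2 was the lowest. Itgb1 had this Vehicle order too, but not the BAPN order. The laminin-binding genes did not share this order: their lowest BAPN library was BAPN 4 for Itga3, Itga7 and Itgb4 and BAPN 3 for Itga6. The summed smooth muscle markers had the order of the collagen-binding chains in the BAPN group. In the Vehicle group their order was another, Vehicle 1 (3346 CPM), Vehicle 2, Vehicle 3 (5169 CPM), Vehicle 4 (6090 CPM) from lowest to highest. The summed fibroblast markers also had Vehicle 4 as the highest Vehicle library, at 6577 CPM, and BAPN 3 as the lowest of all, at 3287 CPM. These orders are a description of 8 libraries with no test.

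Promoter sequences are shown for these 4 chains because they ordered the rats alike. RefSeq (assembly GRCr8) has a promoter entry for 6 of the 9 genes, and none for Itga6, Itga7 and Itgb4 in the table used. Each line holds the 250 bases before the annotated start, 5′ to 3′ on the strand of the gene, with capitals for the short motifs described below.
Itga1, chr2:48545284-48545533, minus strand: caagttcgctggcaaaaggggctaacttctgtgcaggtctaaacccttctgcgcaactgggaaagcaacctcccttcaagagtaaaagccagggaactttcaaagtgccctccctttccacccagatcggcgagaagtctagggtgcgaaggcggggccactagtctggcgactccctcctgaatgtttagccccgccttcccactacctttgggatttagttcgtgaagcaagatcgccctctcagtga
Itga2, chr2:48354510-48354759, minus strand: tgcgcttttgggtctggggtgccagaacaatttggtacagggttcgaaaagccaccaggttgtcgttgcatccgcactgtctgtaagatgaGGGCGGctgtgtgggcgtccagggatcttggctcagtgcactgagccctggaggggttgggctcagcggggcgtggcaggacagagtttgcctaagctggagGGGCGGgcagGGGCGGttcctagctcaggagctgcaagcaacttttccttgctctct
Itga10, chr2:186871461-186871710, plus strand: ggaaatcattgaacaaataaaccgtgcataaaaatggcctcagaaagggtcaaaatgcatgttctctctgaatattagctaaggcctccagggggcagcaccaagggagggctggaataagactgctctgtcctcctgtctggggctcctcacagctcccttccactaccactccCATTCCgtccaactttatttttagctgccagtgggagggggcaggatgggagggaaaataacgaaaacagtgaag
Itga11, chr8:72041182-72041431, plus strand: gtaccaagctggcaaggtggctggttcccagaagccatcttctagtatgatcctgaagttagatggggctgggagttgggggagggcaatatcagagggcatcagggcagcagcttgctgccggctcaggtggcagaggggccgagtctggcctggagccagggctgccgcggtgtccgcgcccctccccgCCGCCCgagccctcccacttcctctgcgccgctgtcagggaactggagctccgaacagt
Itga2 and Itga1 are neighbouring coding genes on chromosome 2 in that assembly.

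The search, on both strands, was for the GC box GGGCGG, the TATA box TATAAA, the CCAAT box, the AP-1 site TGANTCA, the TEAD site CATTCC, the CArG box of serum response factor and the E-box CANNTG (the last not in capitals), with no overlaps among the positions found in these 4. The GC box was found at 3 positions in Itga2, starting 159, 57 and 47 bases before the start, and at 1 position in Itga11, 59 bases before it. It occurs in 30.5% of all 33469 promoters of this length. The TEAD site was found once, in Itga10, 75 bases before the start, and occurs in 12.1% of promoters. The E-box was found in Itga1, 197 bases before the start, and in Itga11, 124 bases before it, and occurs in 65.5% of promoters. It was the only motif of the search in the window of Itga1. TATA, CCAAT, AP-1 and CArG matches were in 0 of the 4 windows, against 12.9%, 34%, 6.34% and 1.5% of all promoters. The GC content was 54.4%, 60.0%, 49.6% and 65.2% in Itga1, Itga2, Itga10 and Itga11, around a median of 51.2% over all promoters. Thus no motif of the search was shared by all 4 genes, which says only that these letters are not in these windows.

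Itgb1 (ENSRNOG00000010966), the beta chain of both receptor kinds, was at 1045, 1288, 1012 and 1127 CPM in BAPN 1 to 4 and at 999, 902, 853 and 1248 CPM in Vehicle 1 to 4. Vehicle 4 lay inside the BAPN range and the other Vehicle rats just below it. The means were 1118 ± 123 and 1000.45 ± 176 CPM, a log2 fold change of 0.16 (SE 0.17, FDR 0.521, exact permutation p = 0.257). Fits that left out 1 rat gave 0.07 to 0.28.

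Because every alpha chain here can pair with β1, the reads of each were also set against those of Itgb1 in the same library. Itga7 had 29.1, 28.5, 20.8 and 10.7 reads per 1000 Itgb1 reads in BAPN 1 to 4, compared with 45.9, 40.9, 53.9 and 59.8 in Vehicle 1 to 4. Itga3 had 16.3, 14.9, 11.3 and 6.28 against 21.5, 19.6, 37.2 and 21.9. Itga2 had 2.24, 2.01, 1.00 and 1.85 against 2.62, 2.85, 2.76 and 4.56. For these 3 chains the groups did not overlap. In CPM, 24.7% of all tested genes had groups without overlap, and the share for ratios of other genes to Itgb1 was not computed. The mean log2 ratio differed by -1.26 for Itga7, -1.08 for Itga3 and -0.88 for Itga2 (exact two-sided permutation p = 0.0286 each, adjusted p = 0.0762 over 8 ratios). Females alone gave -0.75, -0.55 and -0.73. With 8 ratios, at least 5 would have to reach the smallest p for an adjusted value below 0.05.

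The groups overlapped for the other alpha chains. The mean log2 ratio to Itgb1 differed by -1.28 for Itga1 (exact permutation p = 0.0857, adjusted p = 0.137), -0.80 for Itga11 (p = 0.143, adjusted p = 0.190), -0.41 for Itga6 (p = 0.171, adjusted p = 0.196) and -0.30 for Itga10 (p = 0.8, adjusted p = 0.8), all by the same exact test. In females alone the differences were -1.43 (Itga1), -0.34 (Itga11), -0.74 (Itga6) and -0.03 (Itga10), and without Vehicle 4 that of Itga11 was -0.52. The ratio of Itga10 changed sign without Vehicle 4, to 0.36, and was at 0.00085 without BAPN 3.

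**Figure D3:**
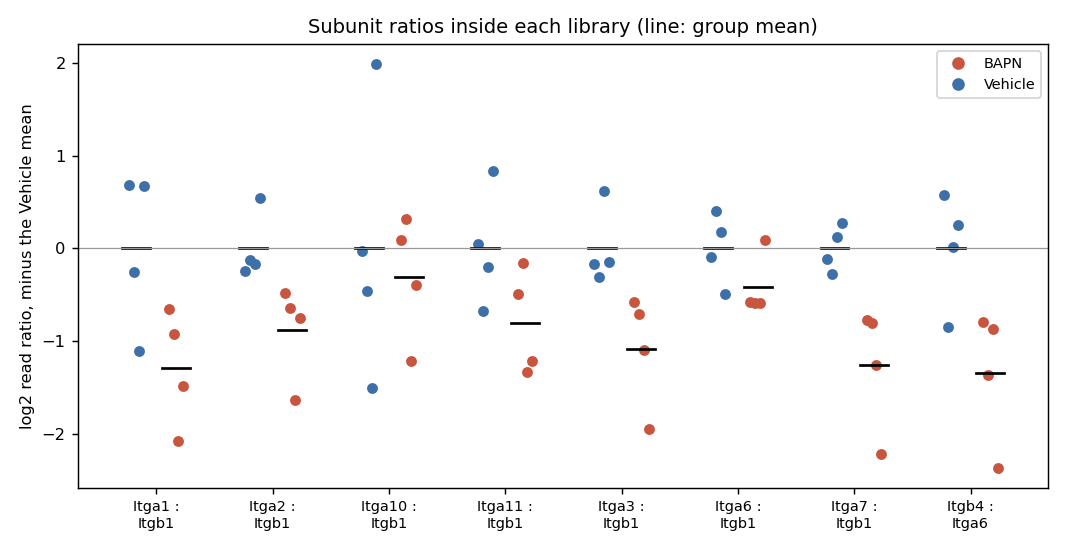
Log2 read ratio of each alpha subunit to Itgb1, and of Itgb4 to Itga6, in every library, shown minus the Vehicle mean of that ratio, with blue for Vehicle, red for BAPN and lines for group means. The groups are apart for Itga2, Itga3 and Itga7, and the single Vehicle point far above the others for Itga10 is Vehicle 4.

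The collagen and laminin receptors were then set against each other. The 3 tested collagen-binding chains had a median log2 fold change of -0.78, with 0 called in edgeR (1, Itga1, at an unadjusted p under 0.05) and 1, lower, in DESeq2. The 4 laminin-binding chains had a median of -0.93, with 1 called in edgeR (3 at an unadjusted p under 0.05) and 3 in DESeq2, all lower. Of all tested genes, 9.25% were called lower in edgeR and 15.1% in DESeq2, and 35.8% had an unadjusted p under 0.05 in either direction. All 7 had values below 0. Averaged over its 4 genes in each rat, the collagen-binding class was at a mean log2 CPM of 2.67 to 4.21 with BAPN and 3.23 to 5.52 with vehicle, with overlap. The laminin-binding class was at 4.71 to 5.47 with BAPN and 5.81 to 6.28 with vehicle, without overlap.

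The SD of the class mean was 0.67 (BAPN) and 0.99 (Vehicle) for collagen-binding chains and 0.34 and 0.20 for laminin-binding chains, so the collagen-binding class varied more between rats of a group. Within each rat the collagen-binding minus the laminin-binding mean was -1.60 ± 0.52 with BAPN and -1.92 ± 0.90 with vehicle. The BAPN values, -2.37 to -1.26, all lay inside the Vehicle range, -2.93 to -0.76. The group means differed by 0.32 (BAPN minus Vehicle), which is smaller than the SD of either group. This comparison rested on single Vehicle rats: without Vehicle 4 the difference was 0.70, the Vehicle range was -2.93 to -1.83 and 3 of the 4 BAPN values lay above it, while without Vehicle 3 the difference was -0.02. Leaving out BAPN 3 gave 0.57, and the groups overlapped whichever rat was left out. These values without 1 rat were added after seeing the data. The members were chosen with earlier results known, so no p is given for these averages. Without Vehicle 4 the collagen-binding median was -0.16, and the laminin-binding median lay between -1.17 (without BAPN 2) and -0.72 (without BAPN 4) over the fits that left out 1 rat.

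**Figure D4:**
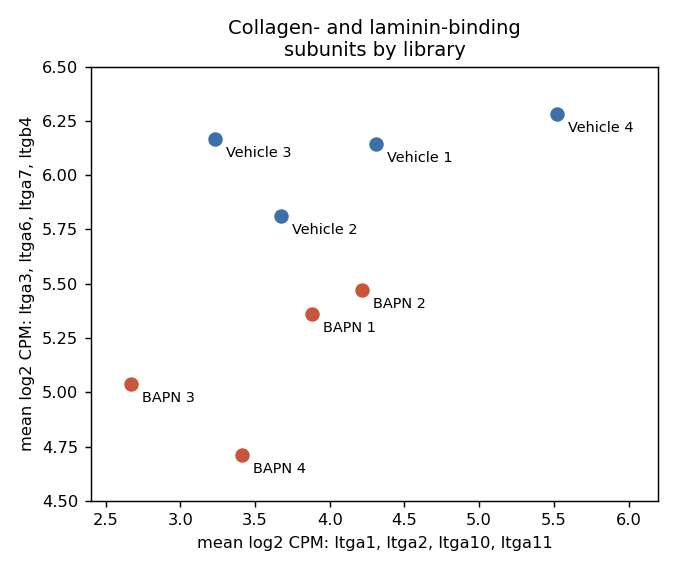
Mean log2 CPM of the 4 laminin-binding genes against that of the 4 collagen-binding genes, with 1 point per library (blue Vehicle, red BAPN). Vehicle and BAPN libraries separate along the laminin axis (lowest Vehicle 5.81, highest BAPN 5.47) and are mixed along the collagen axis, where Vehicle 4 is highest at 5.52.

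The matrix ligands of these receptors were described from 2 fixed lists. Of 8 tested collagen genes, 8 had values below 0, against 48.4% of all tested genes, with a median of -0.75, and 0 were called in edgeR (4 at an unadjusted p under 0.05, against 35.8% of all tested genes) and 4, all lower, in DESeq2, against 15.1%. The fibrillar collagen genes Col1a1 (-1.002, SE 0.41, FDR 0.118) and Col3a1 (-0.84, SE 0.35, FDR 0.119) had values of -0.55 and -0.52 without Vehicle 4 and of -0.17 and -0.31 in females alone. Both were called in DESeq2 (FDR 0.0278 and 0.0273) and without Vehicle 2 (-1.25, FDR 0.0429, and -1.04, FDR 0.0492). Of 7 tested laminin genes, 7 had values below 0 (median -0.70), against 48.4% of all tested genes, and 2 were called, both lower, against 9.25%. Lamb2, a beta chain of vessel and muscle laminins, fell from 486 ± 189 to 212 ± 61.2 CPM (log2 fold change -1.19, SE 0.30, FDR 0.0321). Lama2, the alpha chain of muscle and nerve laminins, fell from 133 ± 37.5 to 69.9 ± 17.3 CPM (-0.93, SE 0.25, FDR 0.0338). Lamb2 was called in 4 and Lama2 in 2 of the 8 fits that left out 1 rat, with FDRs of up to 0.0877 (Lamb2, without BAPN 3) and 0.0914 (Lama2, without Vehicle 1). With sex as a covariate neither was called (-1.17, FDR 0.0708 for Lamb2 and -0.92, FDR 0.0689 for Lama2), with log2 fold changes close to those of the main fit.

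Receptors of other families bind the same ligands, and 3 of the 6 tested were called lower, against 9.25% of all tested genes. Bcam, an immunoglobulin-type receptor for laminin α5, fell from 171 ± 42.7 to 68.4 ± 20.4 CPM (log2 fold change -1.32, SE 0.25, FDR 0.0150) and kept its call whichever rat was left out, but not in females alone (-0.92, FDR 0.0783). Dag1, the dystroglycan gene, fell from 342 ± 75.5 to 216 ± 27.7 CPM (-0.66, SE 0.17, FDR 0.0352). Rpsa, a ribosomal protein also described as a laminin receptor, was not called (0.26, SE 0.17, FDR 0.313). Among other collagen receptors 1 of 3 tested genes was called, the receptor tyrosine kinase Ddr2, which fell from 78.7 ± 28.0 to 26.8 ± 11.8 CPM (-1.56, SE 0.38, FDR 0.0261). Ddr2 lost its call without BAPN 4 (FDR 0.0637), Vehicle 1 (FDR 0.0692) or Vehicle 4 (FDR 0.0543). Dag1 was called in 2 of the 8 fits, with an FDR of up to 0.0907 without BAPN 3. The fit without a filter on low counts did not call Dag1 either (FDR 0.0528). With sex as a covariate, Ddr2 (-1.51, FDR 0.0602) and Dag1 (-0.61, FDR 0.0721) were not called, with log2 fold changes close to those of the main fit.

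Inside the cell, 24 of 26 listed integrin-linked adhesion proteins were tested. Of these, 5 were called, all lower, or 20.8% against 9.25% of all tested genes called lower and 16.8% called in either direction, and the median was -0.27. They were the tensins Tns2 (-1.11, SE 0.21, FDR 0.0157) and Tns1 (-1.38, SE 0.32, FDR 0.0225), the talin-binding proteins Kank2 (-1.06, SE 0.22, FDR 0.0181) and Kank1 (-0.56, SE 0.14, FDR 0.0282), and the adaptor Lims2 (-0.78, SE 0.21, FDR 0.0333). The other 19 had values from -1.05 (the talin Tln2, FDR 0.0837) to 0.44 (the leukocyte kindlin Fermt3, FDR 0.281). The talin Tln1 was at -0.17 (FDR 0.498) and the kinase Ilk at 0.14 (FDR 0.402). Tns2 lost its call without Vehicle 1 (FDR 0.0505), Kank2 without BAPN 3 (FDR 0.0512) or Vehicle 1 (FDR 0.0539), and Tns1 without BAPN 4 (FDR 0.0525) or Vehicle 1 (FDR 0.0636). Kank1 was called in 2 of the 8 fits, with an FDR of up to 0.0720 without BAPN 3. Adding sex to the model also ended its call (FDR 0.0619), with the log2 fold change still at -0.56. Without Vehicle 1, 0 of the 24 were called, Lims2 included.

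Among 7 tested hemidesmosome partners and tetraspanins of laminin-binding integrins, 0 were called in edgeR (3 at an unadjusted p under 0.05, against 35.8% of all tested genes) and the median was -0.01. DESeq2 called 1, against a background of 27.4%, the tetraspanin Cd82, which was higher with BAPN (log2 fold change 0.46, DESeq2 FDR 0.0251). Plec, the plectin that connects β4 to intermediate filaments, was at 634 ± 89.6 and 801 ± 167 CPM (log2 fold change -0.34, SE 0.19, FDR 0.223). The tetraspanin Cd63 was at 877 ± 199 and 627 ± 136 CPM (0.48, SE 0.21, FDR 0.138). Itgb4 was thus the only tested gene of the hemidesmosome receptor and its listed partners that passed the threshold.

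The remaining integrins served as a comparison. Of 14 tested RGD-binding, platelet and leukocyte integrin genes, 6 had values below 0 and 8 above, and the median was 0.15. Those below 0 were Itga2b, Itga9 (-0.87), Itgav (-0.75), Itgb3 (-0.74), Itgb5 and Itga8 (-0.30). Those above were Itga5 (0.28) and the leukocyte genes Itga4, Itgae, Itgal, Itgam, Itgax, Itgb2 and Itgb7 (0.09 to 0.68). A value below 0 was thus not particular to the collagen- and laminin-binding genes. DESeq2 called 4 lower and 1 higher, against 27.4% of all tested genes in either direction. With edgeR, 2 were called lower, against 9.25%. These were Itgb5 (-0.65, SE 0.15, FDR 0.0242), a beta chain of vitronectin receptors, and Itga2b (-1.22, SE 0.33, FDR 0.0401), the alpha chain of the platelet fibrinogen receptor. Itga2b was called only without Vehicle 3 among the fits that left out 1 rat. Without Vehicle 1 its log2 fold change was -0.80 (FDR 0.0932). The fit without a filter on low counts did not call Itga2b either (FDR 0.0505). Itgb5 was not called without BAPN 1 (FDR 0.0509), without BAPN 3 (FDR 0.0594) and without Vehicle 1 (FDR 0.0644). The collagen- and laminin-binding genes were not tested against these as a set. Across the 7 lists, 12 of 66 tested genes were called, all lower, which is 18.2% against 9.25% of all tested genes called lower and 16.8% called in either direction. With sex as a covariate 7 were called. Without Vehicle 1, 1 of them was called, namely Bcam.

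**Figure D5:**
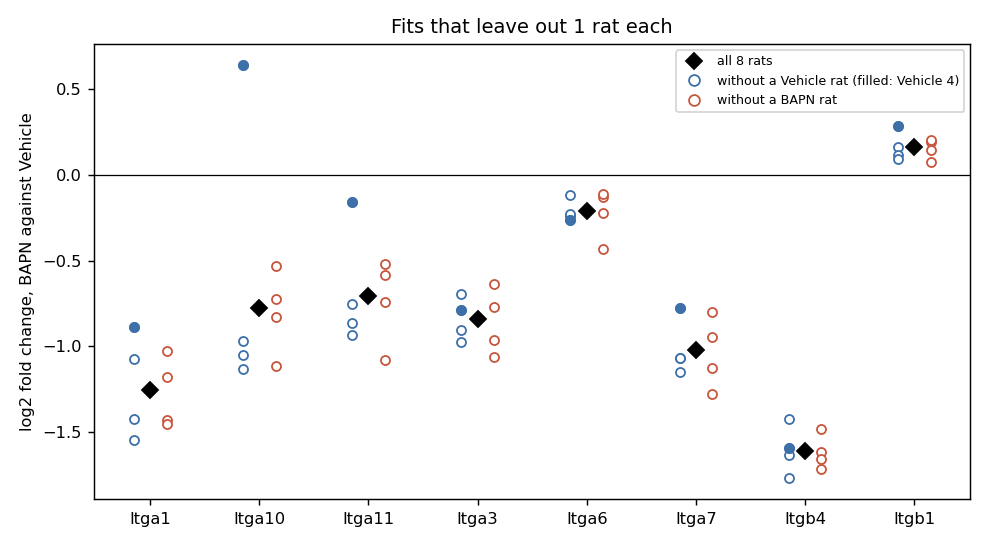
Log2 fold change of the 8 tested subunits with all 8 rats (diamonds) and with 1 rat left out (blue circles without a Vehicle rat, red without a BAPN rat, filled for the fit without Vehicle 4). Itgb4 stays between -1.77 and -1.42, while Itga11 moves to -0.16 and Itga10 to 0.64 without Vehicle 4.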

How the data were processed

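The authors made stranded, ribosomal RNA-depleted libraries from total RNA and, per the labels, used bcl2fastq 2.17, Trim Galore and STAR. The counting tool, strand setting and genome build are not given in the sources used here. The deposited values are whole-number counts per rat Ensembl gene, without normalization, and were used as they are. Groups, replicate numbers and sex came from the sample labels. Each library is 1 rat, so p-values measure the spread between rats. Alternatives were DESeq2, other scalings and filters, sex as a covariate, females alone, a replicate block, equal library totals, another ratio offset and leaving out each rat.

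Genes with a base mean (DESeq2 1.42.0 size factors) of at least 100 were compared with edgeR 4.0.16 (TMM scaling, a quasi-likelihood test with treatment alone in the model, Benjamini-Hochberg FDR over all tested genes) in R 4.3.3. SEs are from limma 3.58.1 (voom). Log2 CPM used a prior count of 2 and read ratios an offset of 0.5. Exact permutation tests were two-sided over 70 arrangements. Promoter sequences and motif shares came from RefSeq (GRCr8), matched by symbol. In simulated counts for this comparison, where 200 of 11682 genes had a true log2 change of 1.5, edgeR found 164 with 6 false calls, and DESeq2 183 with 45 false calls. Libraries of a group differed by more than counting noise (chi-square per degree of freedom of at least 68.5).

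The integrin members and gene lists were chosen with earlier results of these data known. Named were the members and, of each list, up to 4 called genes with the smallest FDR, or else the 2 most abundant. Lims2, Tln1, Tln2, Fermt3, Ilk, Rpsa, Cd82, the comparison integrins other than Itgb5 and Itga2b, and the marker genes were named after their values were seen. Col6a3, Lama3, Itgad, Pecam1, Trp63, Ttn and Trac were not analysed here.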

Additional observations from a re-analysis of the deposited data

Results flagged for a closer look

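Of 40 sets of 4 values (each gene, each ratio and each class mean or class difference in each group), 4 had a library whose gap to its nearest neighbour was above Dixon's 95% critical value as a share of the whole range of the set. Chance gives about 5% of sets, or 2 of 40. In the Vehicle group, Vehicle 4 stood apart for Itga2 (0.92 of the range, 5.68 CPM against 2.36 to 2.62 CPM) and for Itga10 (0.853 of the range, 21.7 CPM against 1.30 to 4.31 CPM). The ratio of Itga2 to Itgb1 also set Vehicle 4 apart (0.848 of the range of the log2 ratios, 4.56 reads per 1000 Itgb1 reads against 2.62 to 2.85). In the BAPN group, the ratio of Itga6 to Itgb1 set BAPN 4, the male, apart (0.974 of the range of the log2 ratios, 134 reads per 1000 Itgb1 reads against 83.6 to 84.7). Without BAPN 4 the log2 ratio of Itga6 to Itgb1 differed by -0.58 between the groups.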

How the results depend on the processing

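The direction of 8 of the 9 genes was the same under every alternative in which they were fitted. The exception was Itga10, at 0.36 among females alone and 0.64 without Vehicle 4. The ratio of Itga10 to Itgb1 also turned sign without Vehicle 4 (0.36) and without BAPN 3 (0.00085). DESeq2 called 4 integrin genes in place of 1, adding Itga1 (-1.27), Itga3 (-0.86) and Itga7 (-1.03), and it called 3202 genes in all and 24 in the other lists. Among females alone 0 integrin genes passed (Itgb4 at -1.48), 89 genes were called in all and 0 in the other lists. The medians in females were -0.06 (collagen-binding, the value of Itga11, with Itga1 at -1.16) and -0.51 (laminin-binding). With sex as a covariate 930 genes and 7 list genes were called. Replicate numbers did not pair the rats (correlations of deviations of 0.09, -0.26, 0.27 and -0.14 for numbers 1 to 4), and with the replicate block 556 genes, 4 list genes and again 1 integrin gene, Itgb4 (FDR 0.0358), were called, while Bcam was not (FDR 0.0633). Scaling by total counts put 69.7% of calls lower in place of 55.2%, with the median of all tested genes at -0.04 in place of 0.02, and Itgb4 at -1.65 (FDR 0.00896).

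Over the fits that left out 1 rat, 1 to 2 integrin genes were called (Itga7 added at -1.28 without BAPN 2), 1 to 15 list genes and 397 (without Vehicle 1) to 2215 genes in all. The log2 fold changes ran from -1.55 to -0.89 (Itga1), -1.13 to 0.64 (Itga10), -1.08 to -0.16 (Itga11), -1.06 to -0.64 (Itga3), -0.43 to -0.11 (Itga6), -1.28 to -0.78 (Itga7), -1.77 to -1.42 (Itgb4) and 0.07 to 0.28 (Itgb1). The collagen-binding median ran from -1.13 to -0.16 and the laminin-binding median from -1.17 to -0.72. Of the ratios to Itgb1, Itga10 ran from -0.80 to 0.36 and no ratio passed an adjusted 0.05 in any fit. Thinning every library to an equal total kept Itgb4 called (-1.60, FDR 0.0074). Causes were not tested. The lowest counts were those of Itga2 (44 to 131 reads per library) and Itga10 (31 to 455 reads).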
